A study of Mus musculus with 6 samples.

Results

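The genes described here are 10 genes of osteoclast fusion and bone resorption, namely *Acp5*, *Ctsk*, *Mmp9*, *Calcr*, *Oscar*, *Dcstamp*, *Ocstamp*, *Nfatc1*, *Atp6v0d2* and *Clcn7*. They were taken by gene name from the RNA-seq tables of 6 mouse libraries, which hold 48733 named genes, and 9 of the 10 carried a named feature. *Nfatc1*, the transcription factor that drives the osteoclast program, carried no name in these tables and was not analysed here. All libraries came from mice of the Collaborative Cross strain CC016/GeniUnc, which is inbred, and the age and sex of the animals were not given in the sources used here. The 3 libraries labelled bone were prepared from the femur after the marrow had been spun out. The 3 libraries labelled osteoblasts were prepared from adherent marrow stromal cells. These cells were grown for 7 days and then treated for 8 days with dexamethasone at 10 nM, beta-glycerophosphate at 10 mM and ascorbic acid at 50 µg/ml, which drive such cells to form osteoblasts. The cultures were not sorted, so cells of the monocyte and osteoclast lineage could be present in them, and neither preparation was made for osteoclasts.

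Markers in several libraries went against the labels, and the labels were kept. *Hbb-bt*, a beta globin gene of red cells, was listed at 34838 FPKM in the library labelled bone 3, 34268 in osteoblasts 2 and 48650 in osteoblasts 3, against 3.43 to 7.05 in bone 1, bone 2 and osteoblasts 1. FPKM counts the read pairs of a gene relative to the length of its transcript and to all aligned pairs of the library. The summed level of 8 neutrophil markers was 14295 to 17320 FPKM in the first 3 of these libraries and 2.53 to 9.91 in the others, and that of 8 monocyte and macrophage markers was 312 to 405 against 1073 to 2106. *Sost*, which is made by osteocytes, the cells buried in bone, was at 15.8 to 22.7 FPKM in bone 3, osteoblasts 2 and osteoblasts 3 and at 0.0661 to 0.198 in the other 3. Another osteocyte gene, *Dmp1*, went the other way, at 22.5 to 24.2 FPKM against 50.0 to 127. Blood and neutrophil genes and *Sost* were therefore near 0 in bone 1 and bone 2 and abundant in osteoblasts 2 and osteoblasts 3, and the differences of the osteoclast genes between the labels are given with and without these 4 libraries. Aligned bases came to between 2.04 and 3.39 gigabases per library. Features without a gene name held 71.5% of the FPKM in bone 2 and 65.0% in osteoblasts 1, against 27.4% to 30.7% elsewhere, so named genes share a smaller part of the total in those 2 libraries.

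Osteoclasts are the cells that dissolve bone. They arise from precursors of the monocyte lineage under M-CSF and RANKL, fuse into cells with many nuclei, seal off a patch of bone, acidify it with a proton pump and a chloride exchanger, and degrade the freed collagen with secreted enzymes. Osteoblasts control them through RANKL and its decoy receptor osteoprotegerin. Among the genes measured, *Acp5*, *Ctsk* and *Mmp9* encode secreted enzymes, *Calcr* and *Oscar* receptors, *Dcstamp* and *Ocstamp* membrane proteins needed for fusion, and *Atp6v0d2* and *Clcn7* parts of the acid-secreting machinery.

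The RefSeq promoter table of GRCm38.p6 held 5 of these genes, and the 250 bases before the listed start are printed for the 4 whose levels the results turn on: the abundant enzymes *Acp5* and *Ctsk* and the receptors *Calcr* and *Oscar*, which differed in their pattern across the libraries. Each is written 5′ to 3′ on the strand of the gene, and capitals mark the letters GGAAA (the core bound by NFAT factors) or GAGGAA (the core bound by PU.1) on either strand, the 2 overlapping where GAGGAA is followed by A.
Acp5, chr9:22135747-22135996, minus strand: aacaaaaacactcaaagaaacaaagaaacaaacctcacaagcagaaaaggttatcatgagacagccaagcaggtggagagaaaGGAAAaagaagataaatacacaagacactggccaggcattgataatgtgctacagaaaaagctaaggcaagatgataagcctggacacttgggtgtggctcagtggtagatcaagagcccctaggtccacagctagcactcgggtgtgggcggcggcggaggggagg
Ctsk, chr3:95498960-95499209, plus strand: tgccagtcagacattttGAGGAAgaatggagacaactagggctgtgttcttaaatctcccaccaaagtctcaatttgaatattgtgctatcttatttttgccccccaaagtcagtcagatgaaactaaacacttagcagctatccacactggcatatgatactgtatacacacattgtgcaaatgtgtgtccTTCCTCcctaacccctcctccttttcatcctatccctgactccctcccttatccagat
Calcr, chr6:3764714-3764963, minus strand: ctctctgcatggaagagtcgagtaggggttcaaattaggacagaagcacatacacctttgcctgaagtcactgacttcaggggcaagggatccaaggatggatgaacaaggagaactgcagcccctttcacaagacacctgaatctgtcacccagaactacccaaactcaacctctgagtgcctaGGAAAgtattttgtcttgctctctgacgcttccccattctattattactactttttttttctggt
Oscar, chr7:3616158-3616407, minus strand: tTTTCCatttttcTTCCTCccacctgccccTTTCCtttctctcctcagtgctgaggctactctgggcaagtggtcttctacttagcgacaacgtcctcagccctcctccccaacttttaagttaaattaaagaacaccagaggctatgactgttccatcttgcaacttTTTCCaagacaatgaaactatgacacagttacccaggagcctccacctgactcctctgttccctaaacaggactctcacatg
The stretch of *Acp5* held 1 match to GGAAA and that of *Calcr* also 1, while that of *Oscar* held 3 matches to GGAAA and 1 to GAGGAA and that of *Ctsk* held 2 to GAGGAA. The stretch of *Clcn7* (chr17:25133141-25133390, plus strand) held 1 match to GGAAA and 1 to CACGTG, the E-box read by MITF and TFE factors. None of the 5 held TGANTCA, the AP-1 site. These letters are common: GGAAA occurred in 55.6%, GAGGAA in 23.3%, TGANTCA in 6.75% and CACGTG in 6.02% of 32851 promoters of the same length. RefSeq listed 3 starts for *Acp5*, 2 each for *Calcr* and *Clcn7* and 1 each for *Ctsk* and *Oscar*, and 1 stretch per gene was used. A match is a description of the letters and not a binding site.

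*Acp5*, which encodes tartrate-resistant acid phosphatase, the classical stain for osteoclasts, lies on the minus strand at chr9:22126727-22135711 (GRCm38, the build of the deposited tables). Its level was 111, 14.9 and 325 FPKM in bone 1, 2 and 3 and 49.0, 342 and 342 FPKM in osteoblasts 1, 2 and 3. The 3 libraries with abundant *Hbb-bt* were the highest, bone 2 was the lowest, and the labels overlapped. The mean was 150.1 ± 159 FPKM for bone and 244 ± 169 for osteoblasts (SD, n = 3 each), so the spread within either label was wider than the difference between them.

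*Ctsk*, on the plus strand at chr3:95499256-95509362, encodes cathepsin K, the protease that cuts bone collagen in the acid pit. Its level was 137, 29.5 and 116 FPKM in bone 1, 2 and 3 and 65.0, 133 and 149 FPKM in osteoblasts 1, 2 and 3. It was the steadiest of the enzymes: bone 1, which had almost no *Hbb-bt*, lay among the 3 libraries that had much of it. The means were 94.3 ± 57.1 and 116 ± 44.5 FPKM (SD, n = 3).

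*Mmp9*, on the plus strand at chr2:164940780-164955850, encodes gelatinase B, which osteoclasts secrete and which neutrophils also store in their granules. It was at 64.8, 2.96 and 263 FPKM in bone 1, 2 and 3 and at 30.2, 257 and 308 FPKM in osteoblasts 1, 2 and 3. The libraries fell in the same order of groups as for *Acp5*, and the range from the lowest to the highest library was wider. The means were 110.2 ± 136 and 198 ± 148 FPKM (SD, n = 3). The neutrophil markers moved the same way, with all 8 higher in bone 3, osteoblasts 2 and osteoblasts 3 than in the other 3 libraries. That pattern was shared by 38.4% of the genes tested, and the part of neutrophils in the *Mmp9* level was not tested. In bulk RNA, a smaller number of cells of a type and less RNA in each of them cannot be told apart.

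*Calcr*, the receptor through which calcitonin stops osteoclasts, lies on the minus strand at chr6:3685680-3764714. It was at 1.57 FPKM in bone 1 and 0.799 in osteoblasts 1, at 0.0549 in bone 2, 0.0951 in bone 3 and 0.0418 in osteoblasts 3, and it was listed at 0 in osteoblasts 2. On a transcript of 1 kb, 3 read pairs would give between 0.133 and 0.221 FPKM, depending on the depth of the library, and 4 of the 6 *Calcr* values lay below that level in their own library. *Calcr* was thus clearly above this limit only in 2 of the 3 libraries that had almost no *Hbb-bt*, while in the 3 libraries with the most *Acp5* it lay below it.

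*Oscar*, an immunoglobulin-like receptor of osteoclasts that binds collagen and signals through the FcRγ adaptor, lies on the minus strand at chr7:3609813-3616157. It was at 1.34, 0 and 2.24 FPKM in bone 1, 2 and 3 and at 0.280, 4.03 and 2.62 FPKM in osteoblasts 1, 2 and 3. Unlike *Calcr*, it was higher in each library with abundant *Hbb-bt* than in any of the other 3. The means were 1.19 ± 1.13 and 2.31 ± 1.90 FPKM (SD, n = 3).

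*Dcstamp* and *Ocstamp* encode the multipass membrane proteins DC-STAMP and OC-STAMP, without which precursors do not fuse. *Dcstamp*, on the plus strand at chr15:39745932-39760934, was at 2.77, 0.0683 and 2.48 FPKM in bone 1, 2 and 3 and at 0.798, 2.97 and 3.01 FPKM in osteoblasts 1, 2 and 3. *Ocstamp*, on the minus strand at chr2:165393760-165400405, was at 0.943, 0.0567 and 1.34 FPKM in bone 1, 2 and 3 and at 0.285, 1.08 and 1.25 FPKM in osteoblasts 1, 2 and 3. Both were low, both were below the 3-pair level in bone 2, and both had osteoblasts 1 next to last. The ratio of *Dcstamp* to *Ocstamp* was 1.85 to 2.93 in the 5 libraries where both were above that level. The means were 1.77 ± 1.48 and 2.26 ± 1.27 FPKM for *Dcstamp* and 0.780 ± 0.658 and 0.874 ± 0.518 FPKM for *Ocstamp* (SD, n = 3).

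*Atp6v0d2*, on the minus strand at chr4:19876841-19922605, encodes the d2 subunit of the vacuolar proton pump, which is rich in osteoclasts and also takes part in their fusion. It was at 7.96, 2.43 and 2.66 FPKM in bone 1, 2 and 3 and at 6.32, 3.79 and 4.57 FPKM in osteoblasts 1, 2 and 3. Bone 1 and osteoblasts 1 were the highest, so its order was unlike that of *Acp5* and *Mmp9*. The means were 4.35 ± 3.13 and 4.89 ± 1.297 FPKM (SD, n = 3).

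*Clcn7* encodes the chloride-proton exchanger of the ruffled border and of lysosomes in most cells. It was at 22.4, 9.94 and 23.3 FPKM in bone 1, 2 and 3 and at 14.2, 19.4 and 19.6 FPKM in osteoblasts 1, 2 and 3, with means of 18.6 ± 7.49 and 17.7 ± 3.08 FPKM (SD, n = 3). From the lowest to the highest library it varied by a smaller factor than any of the other genes. Its feature, on the plus strand at chr17:25133391-25204592, spans 71202 bp against 28726 bp for the RefSeq gene and runs over 6 other RefSeq genes, among them *Ccdc154* and *Unkl*, so reads of these neighbours may be counted in it.

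**Figure D1:**
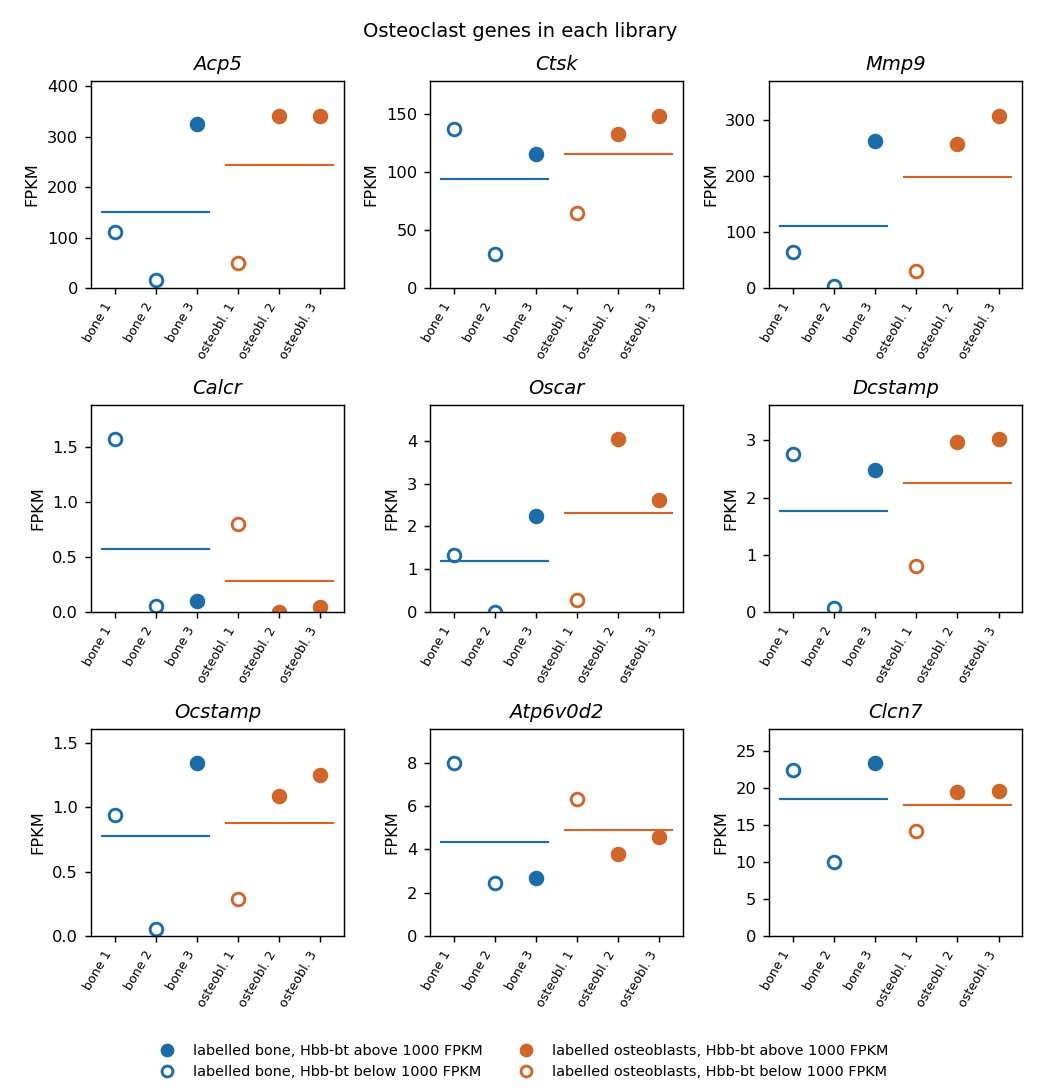
FPKM of the 9 measured osteoclast genes in each of the 6 libraries, 1 panel per gene and each panel with its own axis from 0. Points are libraries ("osteobl." stands for osteoblasts), colours are the labels, filled points are the 3 libraries with *Hbb-bt* above 1000 FPKM, and horizontal lines are the means of 3 libraries. Filled points lie above all open points for *Acp5*, *Mmp9*, *Oscar* and *Ocstamp*, and bone 2 is the lowest point or among the lowest for every gene.

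Levels can be compared between genes only per length, and the deposited tables allow this in 2 ways. On the FPKM scale, *Acp5* lay between the 82.1 and 98.9 percentile of genes at 1 FPKM or more in its library, *Ctsk* between 91.6 and 97.5, *Clcn7* between 72.7 and 84.0, *Mmp9* between 29.7 and 98.8 and *Atp6v0d2* between 22.6 and 51.7. The lowest percentile of *Acp5*, *Ctsk*, *Mmp9*, *Clcn7* and *Atp6v0d2* was that of bone 2. The ratio of *Acp5* to *Ctsk* in FPKM was 0.807, 0.505 and 2.80 in bone 1, 2 and 3 and 0.753, 2.58 and 2.30 in osteoblasts 1, 2 and 3. By the deposited coverage, which is the average read depth along a feature, the same ratio was 0.239, 0.149 and 0.818 and then 0.223, 0.754 and 0.670, so that *Ctsk* was ahead of *Acp5* in all 6 libraries. Which of these 2 enzymes was the more abundant therefore depended on the column used in bone 3, osteoblasts 2 and osteoblasts 3, whereas the higher ratio in those 3 libraries did not.

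Ratios within a library do not depend on its scaling, and they set the genes apart from each other. The ratio of *Mmp9* to *Ctsk* in FPKM was 0.472, 0.1002 and 2.27 in bone 1, 2 and 3 and 0.464, 1.94 and 2.07 in osteoblasts 1, 2 and 3. That of *Atp6v0d2* to *Ctsk* ran the other way, at 0.0580, 0.0822 and 0.0229 and then 0.0972, 0.0285 and 0.0307. The ratio of *Dcstamp* to *Ctsk* stayed between 0.0123 and 0.0224 outside bone 2, where *Dcstamp* was below the 3-pair level. Against *Csf1r*, the M-CSF receptor shared by macrophages and osteoclast precursors, *Ctsk* was at a ratio of 2.49 to 3.38 in the 3 libraries with abundant *Hbb-bt* and at 0.165 to 0.379 in the other 3. Relative to *Csf1r*, *Acp5* spread even further, from 6.61 to 7.77 against 0.0836 to 0.306. The libraries poor in *Hbb-bt* thus held the most *Csf1r* for each unit of *Ctsk* and *Acp5*, and *Ctsk* is also made by some stromal cells, whose part in its level was not tested.

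**Figure D2:**
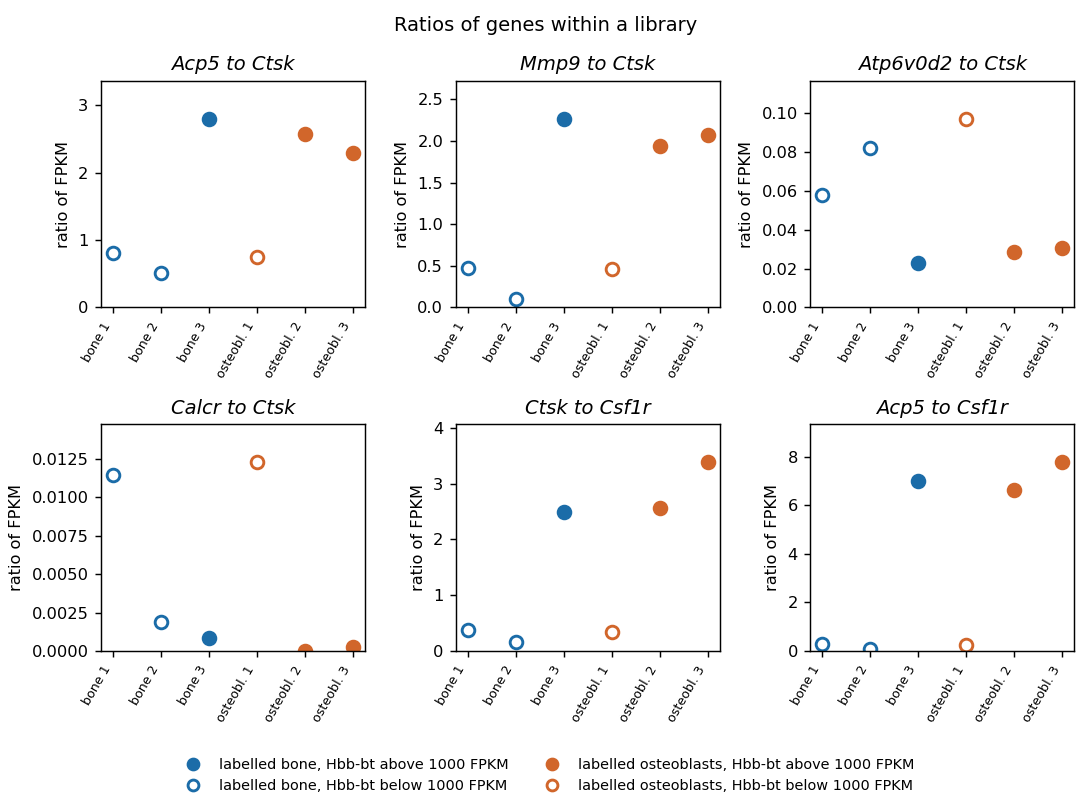
Ratios of the FPKM of gene pairs within each of the 6 libraries, 1 panel per pair, on linear axes from 0. Colours are the labels ("osteobl." stands for osteoblasts) and filled points are the 3 libraries with *Hbb-bt* above 1000 FPKM, which lie highest for *Acp5* and *Mmp9* to *Ctsk* and for *Ctsk* and *Acp5* to *Csf1r*, and lowest for *Atp6v0d2* to *Ctsk*.

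The comparison of the labels asks whether osteoclast genes differ between bone and marrow-derived osteoblasts. None of the genes passed the test. With limma on log2(FPKM + 1), 7 of the 9 genes had a mean of at least 1 FPKM and were tested, 0 of the 7 were called at an adjusted p under 0.05, and 0% of the 12112 genes tested were called (17 had an unadjusted p under 0.05, none of them a gene described here). The difference, osteoblasts minus bone, was 1.11 (SE 1.16) for *Acp5*, 0.47 (SE 0.70) for *Ctsk*, 1.73 (SE 1.46) for *Mmp9*, 0.54 (SE 0.65) for *Oscar*, 0.34 (SE 0.60) for *Dcstamp*, 0.27 (SE 0.49) for *Atp6v0d2* and 0.01 (SE 0.49) for *Clcn7*. Each of these had an adjusted p of 0.999 by limma with Benjamini-Hochberg adjustment. These errors are wide, and a p that misses the threshold does not show that the labels were alike. *Calcr* and *Ocstamp*, below the filter, differed by -0.22 and 0.11 with no test. The median difference of the 7 genes was 0.47, beside 0.12 over all genes tested. The labels overlapped for all 9 genes, and they did not overlap for 0.916% of the genes tested and 1.67% of 27562 genes above 0 in some library. The study's methods give 3 mice as the source of both the femora and the marrow, but no source used here says which libraries share a mouse or come from separate cultures, so these p-values measure the spread between the libraries only.

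The sign of most differences depended on which libraries were kept. Without bone 1, bone 2, osteoblasts 2 and osteoblasts 3, a single library of each label was left and no test was possible. Label and *Hbb-bt* cannot be told apart in the libraries left, bone 3 with abundant *Hbb-bt* and osteoblasts 1 with almost none. Between these, osteoblasts 1 minus bone 3 was -2.70 for *Acp5*, -3.08 for *Mmp9*, -1.34 for *Oscar*, -0.95 for *Dcstamp*, -0.87 for *Ocstamp*, -0.82 for *Ctsk* and -0.68 for *Clcn7* on the log2(FPKM + 1) scale, and 0.72 for *Calcr* and 1.01 for *Atp6v0d2*. In FPKM all but *Atp6v0d2* thus had the opposite sign from that over all 6 libraries, and the share of all genes that did so was not computed. The signs of *Acp5*, *Mmp9*, *Oscar* and *Ocstamp* follow from the division by *Hbb-bt*, as each was higher in every library with abundant *Hbb-bt*. After rescaling to named genes, osteoblasts 1 was above bone 3 for *Ctsk* (108 against 86.1) and for *Clcn7* (23.7 against 17.3). Leaving out bone 2 alone, the library lowest in most of these genes, turned the sign for *Acp5* to -0.080, for *Ctsk* to -0.21, for *Dcstamp* to -0.24 and for *Clcn7* to -0.36. The count over all genes was also set by single libraries: 77 were called without bone 3 and 300 without osteoblasts 1, and 0 of the 7 tested osteoclast genes were among them.

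**Figure D3:**
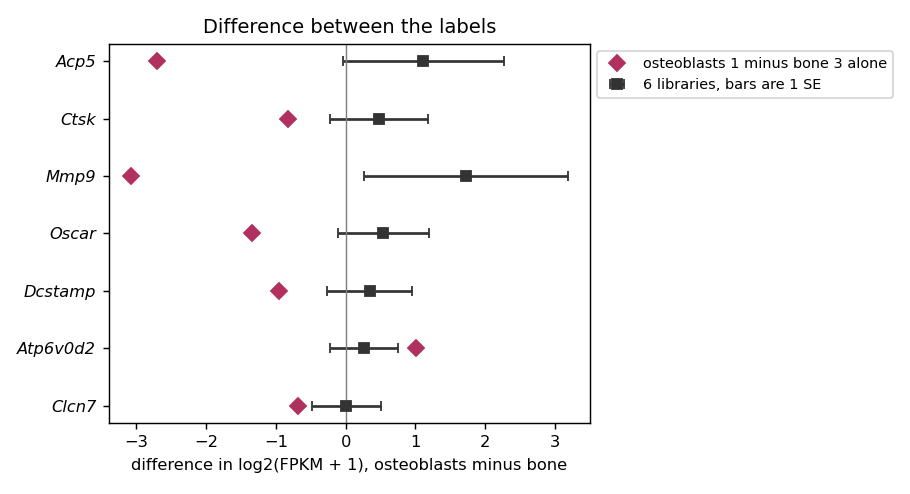
Difference between the labels, osteoblasts minus bone, in log2(FPKM + 1) for the 7 tested osteoclast genes. Squares are the limma estimates over 6 libraries with bars of 1 SE, and diamonds are osteoblasts 1 minus bone 3, with no replicate. All 7 squares are at or above 0, while 6 diamonds are below 0 and that of *Atp6v0d2* is above.

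Grouped by *Hbb-bt* rather than by label, the genes did not move as one. In FPKM, *Acp5*, *Mmp9*, *Oscar* and *Ocstamp* were higher in each of the 3 libraries with *Hbb-bt* above 1000 FPKM than in any of the other 3, which is 4 of 9 genes beside 32.4% of the 27562 genes above 0 (3 of 7 among those tested, beside 38.4%). None was lower in all 3, beside 9.32% of all genes above 0 and 16.9% of those tested. A count of 4 of 9 is close to the background and is no result about these genes. Rescaling each library to its sum over named genes, which evens out the unnamed features, left *Acp5*, *Mmp9* and *Oscar* higher in all 3 libraries and placed *Calcr*, *Atp6v0d2* and *Clcn7* lower in all 3. Those are 3 and 3 of the 9 genes, beside 20.8% and 25.6% of the genes above 0. Among the 7 tested they are 3 and 2, beside 21.4% and 48.6% of the genes tested. The place of *Calcr* rests on values below the 3-pair level in 4 libraries. With this scaling *Acp5* was at 241 to 270 against 27.2 to 121, and *Atp6v0d2* at 1.97 to 3.61 against 4.43 to 10.5. *Ctsk* overlapped on either scale, at 86.1 to 118 against 54.0 to 150.0 after rescaling.

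The 3 libraries poor in *Hbb-bt* differed among themselves. All 9 genes were highest in bone 1, then in osteoblasts 1 and then in bone 2, an order shared by 37.8% of the 27562 genes above 0 and by 67.3% of those tested. After rescaling to named genes, 8 of the 9 kept this order, with *Atp6v0d2* higher in osteoblasts 1 than in bone 1, and 17.7% of the genes above 0 had it (29.4% of those tested). Between bone 1 and bone 2, which carry the same label, *Mmp9* was 21.9 times, *Acp5* 7.43 times, *Ctsk* 4.65 times, *Atp6v0d2* 3.28 times and *Clcn7* 2.25 times as high in FPKM. The median of 9699 genes at 1 FPKM or more in both was 2.00, and that of the 8 monocyte and macrophage markers was 1.92, with a range from 1.58 to 2.16. After rescaling the folds were 13.1, 4.44, 2.78, 1.96 and 1.35, beside 1.19 for the median gene. In bone 2 *Oscar* was listed at 0 and *Calcr*, *Dcstamp* and *Ocstamp* were below the 3-pair level, so no fold is given for these. The same 5 genes were 1.43 to 10.2 times as high in osteoblasts 1 as in bone 2, beside 1.27 for the median of 9526 genes and 1.11 for the macrophage markers, whose range from 0.440 to 2.32 covers *Ctsk* (2.20) and *Clcn7* (1.43). With 1 library on each side these folds have no replicate check.

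**Figure D4:**
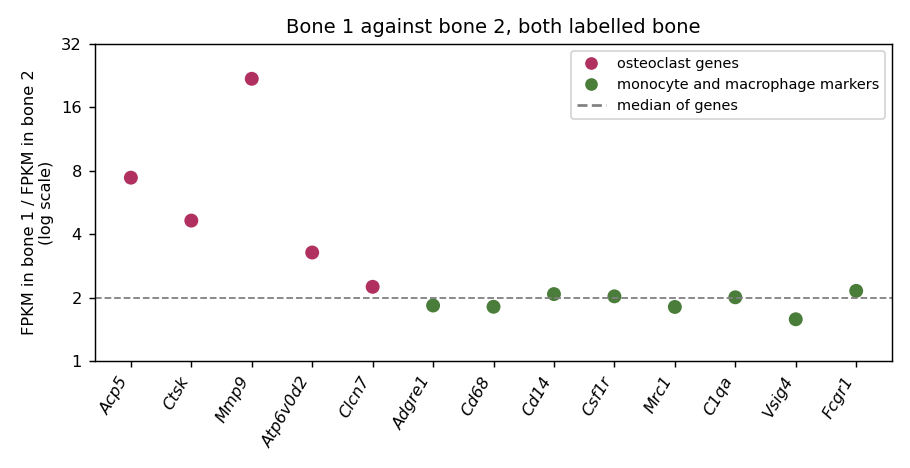
FPKM in bone 1 divided by FPKM in bone 2, on a log axis, for the 5 osteoclast genes above the 3-pair level in both and for 8 monocyte and macrophage markers. Each point is 1 gene in 1 pair of libraries, and the dashed line is the median of 9699 genes at 2.00. *Mmp9*, *Acp5* and *Ctsk* lie well above the line and all 8 macrophage markers lie near it.

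Other genes of the osteoclast pathway were taken from a list of 53, of which 39 carried a named feature and 37 were tested. None was called between the labels over the 6 libraries, with a median difference of -0.01. Without bone 3, and again without osteoblasts 1, 1 of the 37 was called, *Car2*. In FPKM, 6 of the 37 were higher and 11 lower in all 3 libraries with abundant *Hbb-bt*, beside 38.4% and 16.9% of the genes tested. After rescaling the counts were 4 and 28, beside 21.4% and 48.6%. Both the counts and the shares over all genes tested thus moved with the scaling.

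*Tnfrsf11a*, which encodes RANK, the receptor for RANKL, was at 20.3, 11.7 and 1.80 FPKM in bone 1, 2 and 3 and at 13.9, 1.26 and 2.28 FPKM in osteoblasts 1, 2 and 3. *Csf1r* followed the same division, at 363, 179 and 46.5 FPKM and then 196, 51.7 and 44.0 FPKM. The receptors of the 2 cytokines that make osteoclasts were therefore higher in each of the 3 libraries poor in *Hbb-bt*, where *Acp5* and *Mmp9* were lower, although among those 3 all of these genes were highest in bone 1 and lowest in bone 2. In FPKM the 8 macrophage markers, *Csf1r* among them, were also all higher in the 3 libraries poor in *Hbb-bt*, beside 16.9% of the genes tested. That share was 48.6% after rescaling to named genes, a scale on which the markers were not counted. *Itgb3*, the integrin β3 chain that anchors osteoclasts and also marks megakaryocytes, went the other way, at 9.97, 2.62 and 69.3 FPKM and then 6.79, 52.6 and 73.8 FPKM. The summed level of 3 megakaryocyte markers was 559 to 699 FPKM in the libraries with abundant *Hbb-bt* and 44.8 to 101 in the others, and its part in the *Itgb3* level was not tested.

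Of the ligands, *Tnfsf11*, which encodes RANKL, was at 0.215 to 1.04 FPKM in every library. *Tnfrsf11b*, which encodes its decoy receptor osteoprotegerin, was at 19.6, 9.90 and 2.10 FPKM in bone 1, 2 and 3 and at 11.3, 2.75 and 2.19 FPKM in osteoblasts 1, 2 and 3. The ratio of *Tnfsf11* to *Tnfrsf11b* was 0.0529, 0.0218 and 0.177 in bone 1, 2 and 3 and 0.0470, 0.287 and 0.413 in osteoblasts 1, 2 and 3, higher in all 3 libraries with abundant *Hbb-bt*. *Tnfrsf11b* was lower in all 3 of these libraries, while *Tnfsf11* overlapped. In bone 2 *Tnfsf11* was at 0.215 FPKM, just above the 3-pair level of 0.205 in that library. Among transcription factors, *Spi1*, which encodes the myeloid factor PU.1, was at 18.7 to 50.8 FPKM, and *Mitf*, an activator of osteoclast enzymes, at 1.97 to 8.83.

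Of the other genes of acid secretion, *Car2*, which encodes the carbonic anhydrase that supplies protons in osteoclasts and is abundant in red cells, was at 340, 412 and 433 FPKM in bone 3, osteoblasts 2 and osteoblasts 3 and at 0.0387 to 0.985 in the other 3. It divided the libraries as *Hbb-bt* did, and the part of red cells in it was not tested. *Tcirg1*, the a3 subunit that carries the proton pump to the ruffled border, was at 65.7, 36.4 and 47.7 FPKM in bone 1, 2 and 3 and at 37.3, 44.3 and 45.4 FPKM in osteoblasts 1, 2 and 3. As a share of the 4 a subunits together it was 60.8%, 61.3% and 57.6% in bone 1, 2 and 3 and 53.6%, 56.3% and 57.6% in osteoblasts 1, 2 and 3. The mean was 59.9% ± 1.99 for bone and 55.9% ± 2.02 for osteoblasts (SD, n = 3), a difference of -4.05 percentage points. The exact two-sided permutation test gave p = 0.1, the smallest that 3 against 3 libraries allow, and the nearest libraries of the labels were equal to 3 digits. By coverage in place of FPKM the difference was -1.003 points with p = 0.8 by the same exact permutation test, so its size depended on the column, and between osteoblasts 1 and bone 3 alone it was -4.00 points in FPKM. *Ostm1*, the partner that stabilises *Clcn7*, was at 3.66 to 13.7 FPKM, and *Clcn7* was 1.15 to 2.54 times its level except in bone 3, where it was 6.39 times.

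Among the 8 genes outside these lists whose profile over the 6 libraries was most like the mean profile of the osteoclast genes were *Tmem94*, *Gas7*, *Fabp4*, *Gm6485*, *Gm8797*, *Med12* and *Erh*, taken from 7005 genes with a mean of at least 5 FPKM. The measure was the root mean square difference of log2(FPKM + 1) profiles centred on their means, and it ran from 0.13 for *Tmem94* to 0.17 for *Erh*. By the same measure the genes themselves lay at 0.12 for *Dcstamp*, 0.13 for *Ctsk*, 0.32 for *Oscar*, 0.38 for *Ocstamp*, 0.42 for *Clcn7*, 0.80 for *Atp6v0d2*, 0.93 for *Calcr* and *Acp5* and 1.49 for *Mmp9*. The common profile is the mean of these 9 genes, so their nearness to it is in part built in. *Fabp4*, a fatty acid binding protein of fat cells and macrophages, was at 15.3 FPKM in bone 2, 30.9 in osteoblasts 1 and 52.6 to 80.2 in the other 4.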

How the data were processed

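Total RNA was sequenced as 75 bp read pairs. According to the methods and the submitters' processing notes, the authors aligned reads to GRCm38 with HISAT2 2.0.5, used SAMtools 1.7 and estimated expression with StringTie 1.3.3. The authors deposited for each feature its FPKM, which is scaled to all aligned pairs, its TPM and its coverage. No counts are in these tables, so depth was read from the commonest ratio of coverage to FPKM. FPKM of features with the same name was summed. Genes with a mean of at least 1 FPKM were fitted with limma 3.58.1 in R 4.3.3 (lmFit, eBayes with trend) on log2(FPKM + 1), by label and without a replicate block, and called at a Benjamini-Hochberg adjusted p under 0.05. That scale understates the change of low genes. The fit was tested on simulated data with known log2 changes of 2 and an SD of 0.3. The median SD within a label of the data was wider, at 0.59 on the log2 scale. The simulation therefore checks the code and does not show which changes could be found in these libraries. Other steps used Python 3.11.15, pandas 2.3.3, numpy 2.4.6, scipy 1.17.1 and matplotlib 3.10.9. The alternatives were other pseudocounts, filters and scalings, TPM, no trend, the replicate block, leaving out each library, and leaving out the 4 libraries whose markers went against their labels.

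The genes and lists were chosen with earlier results of these data known. Named are the 10 genes, the pathway, family and marker lists, *Hbb-bt* and the genes of most similar profile, except 2 genes that are not reported here. *Nfatc1* and *Atp6v0d1* had no named feature, so the planned share of the d2 subunit could not be computed. Promoters came from RefSeq on GRCm38.p6, with no conversion between builds. Proteins were not used here.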

Additional observations from a re-analysis of the deposited data

How the results depend on the processing

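The osteoclast genes stayed at 0 calls in every setting that could be fitted. The count over all genes, 0 as reported, ranged from 0 to 300 when 1 library was left out (66 higher and 11 lower without bone 3, 262 and 38 without osteoblasts 1), and that of the pathway list from 0 to 1, *Car2* in both. No source ties the numbers to mice. Deviations of same-numbered libraries from their label means correlated at 0.84, -0.75 and 0.83, and bone 2 lay nearest to osteoblasts 1. The sign of every such correlation between a bone and an osteoblasts library followed the division by *Hbb-bt*. These values therefore cannot decide for or against a pairing by number. With the replicate block 49 genes were called (46 higher, 3 lower), 1 of them *Car2* of the pathway list, and 0 of the osteoclast genes. A pairing by mouse, of which the methods give 3, could not be made.

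Leaving out 1 library moved the difference of *Acp5* between -0.080 and 2.10, *Ctsk* between -0.21 and 0.88, *Dcstamp* between -0.24 and 0.73 and *Clcn7* between -0.36 and 0.21, with the sign turned without bone 2, and for *Clcn7* also without osteoblasts 2 (-0.057) or osteoblasts 3 (-0.063). *Clcn7* was -0.060 with TPM, -0.16 scaled to named genes, -0.082 scaled to the 75th percentile and -0.080 by quantiles. Those scalings moved the median of all genes from 0.12 to 0.05, -0.03, 0.04 and -0.01. With bone 3 and osteoblasts 1 alone, the differences were -2.70 for *Acp5*, -0.82 for *Ctsk*, -3.08 for *Mmp9*, -1.34 for *Oscar*, -0.95 for *Dcstamp*, -0.68 for *Clcn7*, 0.72 for *Calcr* and -0.87 for *Ocstamp*, and counts could not be fitted. The cause of these changes was not tested. The difference in the a3 share kept its sign, from -5.19 to -2.94 points when 1 library was left out, and was -1.003 points with p = 0.8 (exact permutation test) by coverage, against -4.05 and 0.1. The remaining 55 values of counts and shares and 109 of single genes kept their direction and side of the threshold. Coverage in place of FPKM was chosen after seeing the data, except for the a3 share. A filter of 5 FPKM gives no value for *Atp6v0d2*, *Dcstamp* and *Oscar*, and the d2 share was not run. Depth limits *Calcr*, below the level of 3 pairs on a transcript of 1 kb in 4 of 6 libraries, and *Oscar*, *Dcstamp* and *Ocstamp* in bone 2.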

Other observations

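Families of the osteoclast genes were compared across the libraries as values, with no explanation. Their counts by *Hbb-bt* are in FPKM and were not made after rescaling to named genes. On that scale 48.6% of the genes tested were lower and 21.4% higher in all 3 libraries with abundant *Hbb-bt*. Of 13 cathepsins listed, 11 carried a named feature, all 11 were tested and 0 were called between the labels. Against *Ctsk*, which overlapped, 7 of the 11 were lower in all 3 libraries with *Hbb-bt* above 1000 FPKM (beside 16.9% of the genes tested), and *Ctsw*, a protease of lymphocytes, was higher in all 3. *Ctss*, the cathepsin of antigen-presenting cells, was at 654, 404 and 41.5 FPKM in bone 1, 2 and 3 and at 292, 72.4 and 51.1 FPKM in osteoblasts 1, 2 and 3. *Ctsb*, a general lysosomal protease, was at 993, 496 and 171 FPKM and then 503, 198 and 179 FPKM. *Ctsk* was thus the least abundant of the 3 by FPKM in bone 1, bone 2 and osteoblasts 1.

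Of 12 matrix metalloproteinases listed, 10 carried a named feature and 8 were tested, with 0 called. Among the 8, *Mmp9* and the neutrophil collagenase *Mmp8* were higher in all 3 libraries with abundant *Hbb-bt* and 5 were lower in all 3, beside 38.4% and 16.9% of the genes tested. *Mmp13*, the collagenase of osteoblasts and hypertrophic cartilage, was at 168, 106 and 36.7 FPKM in bone 1, 2 and 3 and at 98.7, 37.4 and 35.8 FPKM in osteoblasts 1, 2 and 3. *Mmp12*, the elastase of macrophages, was at 14.2 and 8.74 FPKM in bone 1 and bone 2 and at 11.3 in osteoblasts 1, and at 0, 0 and 0.0266 in bone 3, osteoblasts 2 and osteoblasts 3. *Mmp9* and *Mmp13* were therefore highest in opposite sets of libraries.

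Of the other NFAT genes, *Nfatc2*, *Nfatc3*, *Nfatc4* and *Nfat5* were measured, and *Nfatc3* was the most abundant by FPKM in every library, at 6.33 to 13.9. Of the CLC exchangers, *Clcn3* was at 11.1 to 15.6 FPKM in the 3 libraries with abundant *Hbb-bt* and at 1.73 to 4.44 in the others, while *Clcn4* and *Clcn5* were lower in those 3. None of these passed limma between the labels.

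Of 17 other subunits and accessory proteins of the vacuolar proton pump, 15 carried a named feature and 12 were tested, with 0 called between the labels. Among the 12, *Atp6v1a*, *Atp6v1h* and *Atp6ap2* were lower in all 3 libraries with abundant *Hbb-bt*, and none was higher in all 3, beside 16.9% and 38.4% of the genes tested. The comparisons of the labels in these families and lists were made over all 6 libraries. None of the marker lists had a gene called between the labels. In bone 3, osteoblasts 2 and osteoblasts 3 against the other 3 libraries, the summed FPKM was 35727 to 50254 against 3.48 to 7.29 for red cell markers and 111 to 127 against 7.27 to 20.8 for B cell markers. It was 235 to 983 against 1.597 to 3.82 for skeletal muscle markers and 150.0 to 174 against 15.8 to 34.9 for genes of dividing cells. It was 1676 to 2404 against 2769 to 4530 for osteoblast markers, 48.2 to 53.5 against 57.1 to 135 for osteocyte markers and 255 to 387 against 566 to 1420 for fibroblast and stromal markers. Single markers did not all follow their sums. Of the osteocyte markers, *Dmp1* was lower in all 3 libraries with abundant *Hbb-bt*, *Sost* was higher in all 3, and *Phex*, *Pdpn* and *Fgf23* overlapped. Of the stromal markers, *Col3a1* was lower in all 3 libraries with abundant *Hbb-bt*, *Dcn* and *Lum* were higher in all 3, and *Thy1* overlapped. The osteoblast markers *Runx2*, *Sp7* and *Col1a1* and the B cell marker *Ebf1* overlapped as well. Lists of blood, muscle and dividing cells thus had their highest sums in the same 3 libraries as *Acp5* and *Mmp9*, and their part in those levels was not tested.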
